A study of Mus musculus with 2 samples.

Results

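Genes of the immunoreceptor tyrosine-based activation motif (ITAM) pathway were described in cultured mouse bone marrow cells, with and without the osteoclast-inducing cytokine RANKL. The 10 genes comprise 3 receptors (Oscar, Trem2 and Siglec15), 2 adaptors (Fcer1g and Tyrobp), 3 kinases (Syk, Btk and Tec) and 2 downstream signalling proteins (Plcg2 and Blnk). The genes were chosen by their place in the pathway, with earlier results of these data known. All 10 were found among the 13464 genes that had an assembled locus of their own and a TPM (transcript abundance scaled to gene length and library size) of 1 or more in either library.

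The study compared RNA from wild-type bone marrow cells cultured with M-CSF alone (M) and with M-CSF plus RANKL (MR), each as 1 library of total RNA. Both cultures carried the WT genotype and received M-CSF, the cytokine that keeps macrophage-lineage cells alive and dividing. The labels give 2 days of M-CSF and then 2 days of M-CSF and RANKL for MR. For M, 2 days of M-CSF and 0 days with RANKL are recorded. The total culture time of M is not given here, so culture time may differ between M and MR along with RANKL. The general culture method of the study gives a different period with RANKL. The strain, age and number of mice behind each library are not given in the sources used here. With 1 library per condition no difference could be checked against replicates, no p-value was computed, and the effect of RANKL cannot be told apart from the difference between these 2 cultures.

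In osteoclast precursors, RANK signalling alone does not complete differentiation. Receptors such as Oscar, Trem2 and Siglec15 have little signalling capacity of their own and pair in the membrane with the adaptors FcRγ (Fcer1g) and DAP12 (Tyrobp). Src family kinases phosphorylate the paired tyrosines of the adaptor ITAM, Syk docks there, and Btk, Tec and Blnk help to activate phospholipase Cγ2 (Plcg2), whose product releases calcium and thereby activates Nfatc1.

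The ITAM itself is shown here as coding sequence, because it is the element that the adaptors carry and the receptors lack. Capitals mark the codons of the 2 tyrosines and of the leucine that follows each of them after 2 other codons. Both sequences are 45 bases of the GRCm38 genome, read 5′ to 3′ on the coding strand.
Fcer1g: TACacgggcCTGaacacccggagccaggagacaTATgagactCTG
Tyrobp: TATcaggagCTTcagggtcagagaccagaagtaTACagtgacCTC
The Fcer1g motif spans codons 65 to 79 of 86 in transcript Fcer1g-201. It is split between exon 4 (chr1:171230067-171230072, minus strand) and exon 5 (chr1:171229889-171229927) of 5. The Tyrobp motif spans codons 92 to 106 of 114 in Tyrobp-201 and is split in the same way between exon 4 (chr7:30415670-30415675, plus strand) and exon 5 (chr7:30417344-30417382) of 5. In both genes exon 4 supplies 6 bases and exon 5 supplies 39 bases, and 7 codons lie between the first leucine codon and the second tyrosine codon. The search pattern was a tyrosine codon, 2 codons of any kind and a leucine or isoleucine codon, then 6 to 8 codons and the same again. It was found in 616 of 21630 protein-coding genes (2.85%). Among the 10 genes it was present in the adaptors alone. It was present in 7 of 8 genes listed as other ITAM adaptors, all but Hcst, and in 0 of 25 other activating receptors. A match to this pattern describes a sequence and is not evidence of phosphorylation.

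Values are the TPM that the authors deposited for the loci assembled from the reads, summed over the loci of a gene. TPM is scaled to gene length so that levels can be set side by side between genes. Some comparisons between genes nevertheless differed on the deposited read coverage, as given below. Ratios of MR to M are given on the log2 scale after adding 1 to each TPM, and a gene was called higher or lower past a log2 ratio of 1. Intervals are 95% and come from read pairs estimated from FPKM and the length of the shortest coding transcript. They cover counting error alone and not the variation between cultures.

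For M the files correspond to 3.63 Gb of aligned bases, and for MR to 2.98 Gb. The tables list 19422 assembled loci in M and 19922 in MR, of which 15665 loci with 95.4% of the TPM and 16523 loci with 96.9% of the TPM were given to genes. Of all genes tested, 34.5% passed a log2 ratio of 1 in either direction, with 21.2% higher in MR and 13.3% lower. Past a log2 ratio of 2, 7.12% were higher and 3.87% lower. The median log2 ratio over all genes was 0.21. The osteoclast markers Acp5, Ctsk, Calcr, Atp6v0d2, Dcstamp and Ocstamp were all higher in MR, and together reached 109 TPM in M and 19312 TPM in MR.

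Of the 10 ITAM pathway genes, 2 were called higher in MR, 2 were called lower and 6 were called neither. This is 40% called, beside 34.5% of all genes. The genes called were the 3 receptors and the adaptor Fcer1g. The median log2 ratio of all 10 genes was -0.32, below the all-gene median of 0.21. The kinases and downstream proteins stayed within a log2 ratio of 1.

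**Figure D1:**
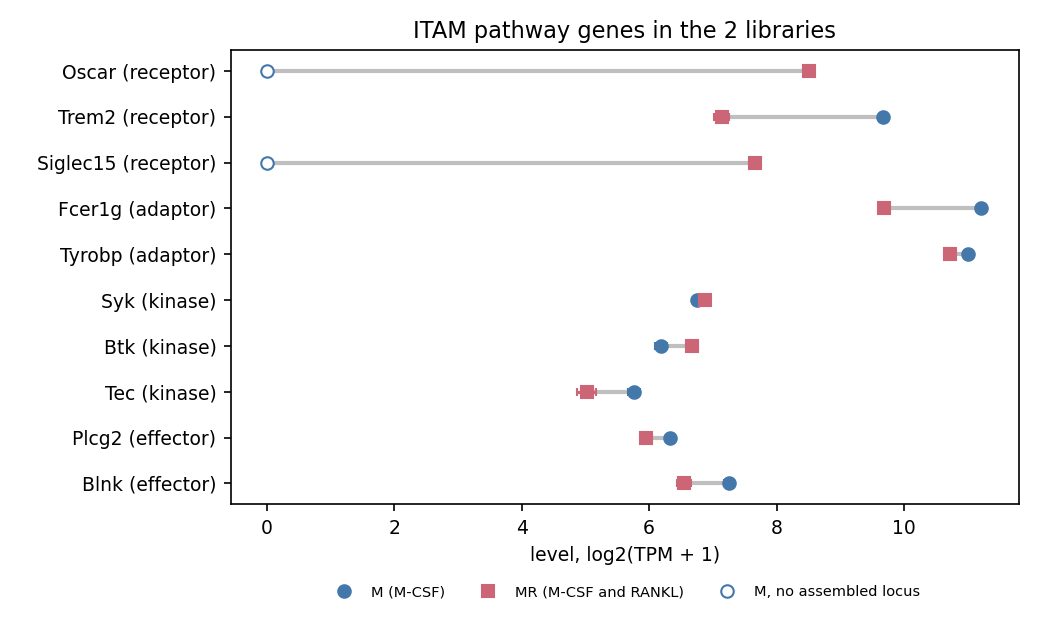
Level of the 10 genes as log2(TPM + 1) in M (circles) and MR (squares), ordered by role, with bars for the 95% counting intervals, mostly hidden by the symbols, and open circles at 0 where M had no locus. Oscar and Siglec15 have no locus in M and values of 365 and 200 TPM in MR, Trem2 and Fcer1g are lower in MR, and the kinases and downstream proteins lie close together in both libraries.

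Oscar is a collagen receptor that pairs with FcRγ on osteoclasts. In GENCODE vM21 it is annotated on the minus strand at chr7:3609813-3616157 (GRCm38). No locus was assembled over Oscar on either strand in M, and 1 locus of 365 TPM (351 to 378) was assembled in MR, from an estimated 2890 read pairs. No fold change is given, because no assembled locus in M was given to the gene. In MR, Oscar ranked 415 by TPM, above both other receptors.

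Siglec15 is a sialic acid-binding receptor that pairs with DAP12 and acts in the fusion and function of osteoclasts. It lies on the minus strand at chr18:78043614-78057395. In M no locus was assembled over it on either strand, and in MR it had 1 locus of 200 TPM (188 to 213), from an estimated 1022 read pairs, and ranked 724. Absence of a locus does not show absence of RNA, since 5% of the loci listed for M had a TPM of 0.148 or less and weaker signals may not have been assembled.

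Having no locus in M and at least 100 TPM in MR was rare among all genes. This class, which was set after the values were seen, held 15 of 13464 genes (0.111%), 2 of which were Oscar and Siglec15. The class also held Dcstamp and Ocstamp, which are needed for the fusion of osteoclast precursors, Car2, the carbonic anhydrase that supplies protons for bone resorption, and Mt3 at 4333 TPM. Gm7336 (330 TPM in MR), Gm17494 (281 TPM), Gm10163 (205 TPM), Gm12070 (149 TPM), Gm14648 (139 TPM) and Plekhf1 (121 TPM) were in it as well. Whether the assembly of loci or their assignment to genes placed any gene in the class was not tested. The protein-coding genes nearest to Oscar in log2(TPM + 1) over the 2 libraries were 4930404N11Rik (0 in M and 357 TPM in MR), H2-Q1 (0 and 300.02 TPM) and Dcstamp (0 and 280 TPM). Those nearest to Siglec15 were Ocstamp (0 and 202 TPM), Rufy4 (0 and 173 TPM) and Car2 (0 and 164 TPM). The likeness rests on 2 libraries and is a description of levels.

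Trem2, a lipid-sensing receptor of macrophages that pairs with DAP12, went the other way from Oscar and Siglec15. It lies on the plus strand at chr17:48346401-48354147. Trem2 had 817 TPM (794 to 840) in M and 140 TPM (129 to 151) in MR. The MR level was 17.1% of the M level, a log2 ratio of -2.54 (-2.66 to -2.42), and 1.91% of all genes had a lower ratio. Trem2 ranked 127 by TPM in M and 1094 in MR. On the deposited read coverage (depth per base, here per aligned Gb) its log2 ratio was -1.73. The nearest protein-coding genes in level were Fcgr4, an activating Fc receptor that pairs with FcRγ (756 TPM in M and 121 TPM in MR), Aif1 (756 and 120.1 TPM) and Serf2 (682 and 146 TPM).

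The makeup of the receptor group differed between the libraries. Trem2 held all of their summed TPM in M and 19.8% in MR, where Oscar held 51.7% and Siglec15 28.4%. The sum itself was 817 TPM in M and 705 TPM in MR, or 86.2% of the M level. These figures depended on the deposited column used. On coverage per aligned Gb the receptor sum in MR was 126% of that in M, and the MR shares were 63.9% for Oscar, 23.6% for Trem2 and 12.5% for Siglec15, which then ranked below Trem2. Oscar held the largest share in MR on both columns. Sums and ratios over roles were chosen after the values of the single genes were seen, and their coverage versions were added later.

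Fcer1g encodes FcRγ, the partner of Oscar and of the activating Fc receptors. It lies on the minus strand at chr1:171229572-171234365. Fcer1g had 2357 TPM (2309 to 2407) in M and 822 TPM (790 to 855) in MR. The MR level was 34.9% of the M level, a log2 ratio of -1.52 (-1.58 to -1.45), and 6.85% of all genes had a lower ratio. By TPM it was the most abundant of the 10 genes in M, whereas by coverage it was second to Tyrobp (588 and 948 per aligned Gb).

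Tyrobp encodes DAP12, the partner of Trem2 and Siglec15, and lies on the plus strand at chr7:30413760-30417585. Tyrobp had 2049 TPM (1999 to 2099) in M and 1692 TPM (1642 to 1744) in MR. Its MR level was 82.6% of the M level, a log2 ratio of -0.28 (-0.33 to -0.22), and it was not called. In MR it was the most abundant of the 10 genes by TPM and by coverage.

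Relative to Tyrobp, Fcer1g was lower in MR than in M. Fcer1g had 1.15 times the TPM of Tyrobp in M and 0.486 times in MR, and the counting intervals of the pair did not overlap in either library. By coverage Fcer1g had 0.621 times the level of Tyrobp in M and 0.246 times in MR, so that the order of the adaptors inverted by TPM alone, while the ratio was lower in MR on both columns. Their sum was 4406 TPM in M and 2514 TPM in MR, or 57.1% of the M level. Adaptor TPM exceeded receptor TPM 5.39-fold in M and 3.57-fold in MR, and by coverage 7.71-fold and 3.73-fold. In MR, Fcer1g had 2.25 times the TPM of its partner Oscar, and Tyrobp 8.45 times the TPM of its partner Siglec15. By coverage these ratios were 1.15 and 23.9. Transcript levels are given here, and protein levels were not analysed.

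**Figure D2:**
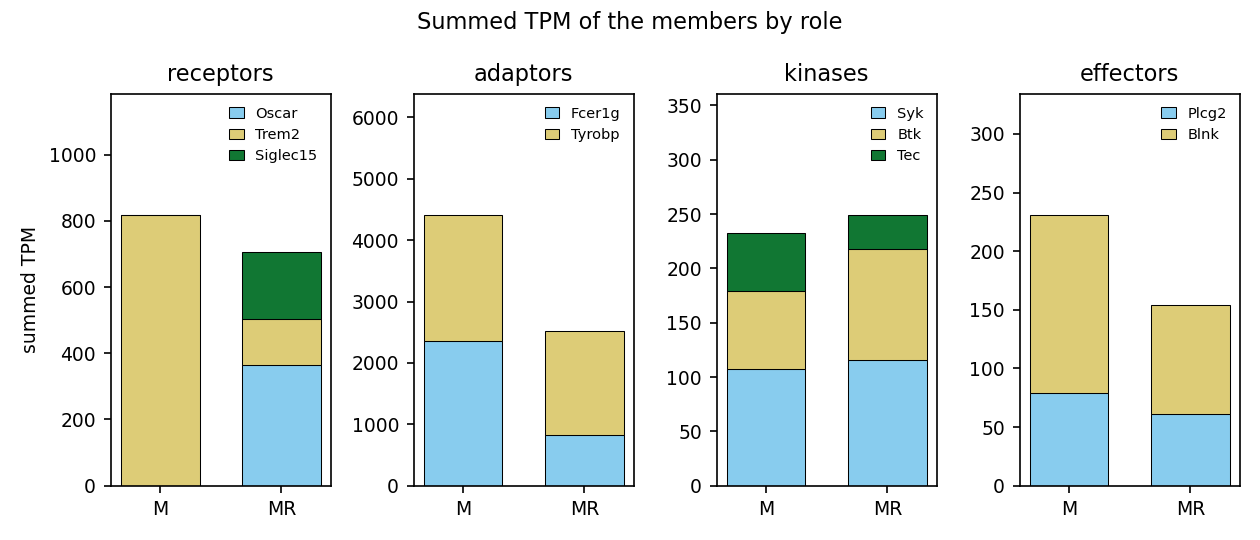
Summed TPM of the receptors, adaptors, kinases and downstream proteins in M and MR, stacked by gene, with a linear axis from 0 of its own for each role (effectors are the downstream proteins). The receptor sum is 817 TPM in M, all Trem2, and 705 TPM in MR, mostly Oscar and Siglec15, and the adaptor sum is 4406 and 2514 TPM.

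Syk, the kinase that docks on the phosphorylated ITAM, differed little between the libraries. It lies on the plus strand at chr13:52583173-52648792. Syk had 107 TPM (102 to 113) in M and 116 TPM (110 to 123) in MR. The log2 ratio was 0.11 (0.01 to 0.22), and its direction depended on the scale, with -0.08 after median-of-ratios scaling and -0.0005 on coverage per aligned Gb. Adaptor TPM exceeded Syk TPM 41.1-fold in M and 21.7-fold in MR.

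The Tec family kinases Btk and Tec act downstream of Syk and phosphorylate phospholipase Cγ. Btk, on the minus strand at chrX:134542336-134583570, had 71.7 TPM (66.9 to 76.7) in M and 101 TPM (95.1 to 108) in MR, a log2 ratio of 0.50 (0.36 to 0.63). Tec, on the minus strand at chr5:72755716-72868483, had 53.3 TPM (49.6 to 57.2) in M and 31.5 TPM (28.3 to 34.9) in MR, a log2 ratio of -0.74 (-0.93 to -0.56). The pair thus lay on opposite sides of 0, and neither passed a log2 ratio of 1. In M a locus of the ribosomal protein gene Rpl36a, on the opposite strand, reached over 390 exon bases of Btk (12.4%), and in MR it reached over 0. Whether reads were shared between them was not tested.

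Together the 3 kinases had 232 TPM in M and 249 TPM in MR, or 107.2% of the M level. Syk held 46.2% of the sum in M and 46.6% in MR. The share of Btk was 30.9% in M and 40.7% in MR, and that of Tec 23.0% and 12.6%.

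Plcg2, the phospholipase that produces the signal for calcium release, and Blnk, the scaffold that links it to Syk and Btk, were both lower in MR without passing the threshold. Plcg2 lies on the plus strand at chr8:117498291-117635142 and had 79.4 TPM (75.9 to 83.0) in M and 61.2 TPM (57.7 to 64.8) in MR, a log2 ratio of -0.37 (-0.48 to -0.26). Blnk lies on the minus strand at chr19:40928927-40994535 and had 151 TPM (144 to 159) in M and 92.7 TPM (86.0 to 99.9) in MR, a log2 ratio of -0.70 (-0.83 to -0.57). Their sum was 231 TPM in M and 154 TPM in MR, or 66.7% of the M level.

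The order of levels by TPM in M was Fcer1g, Tyrobp, Trem2, Blnk, Syk, Plcg2, Btk and Tec from highest to lowest. Among neighbours in this order the counting intervals overlapped for Plcg2 and Btk alone. In MR the order was Tyrobp, Fcer1g, Oscar, Siglec15, Trem2, Syk, Btk, Blnk, Plcg2 and Tec, and the intervals overlapped for Btk and Blnk alone. By coverage, Tyrobp was above Fcer1g in M and Siglec15 lay between Blnk and Plcg2 in MR, and the other genes kept their order. On both columns and in both libraries the adaptors were above every receptor, and Tec was the lowest of the 10 genes with a locus.

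**Figure D3:**
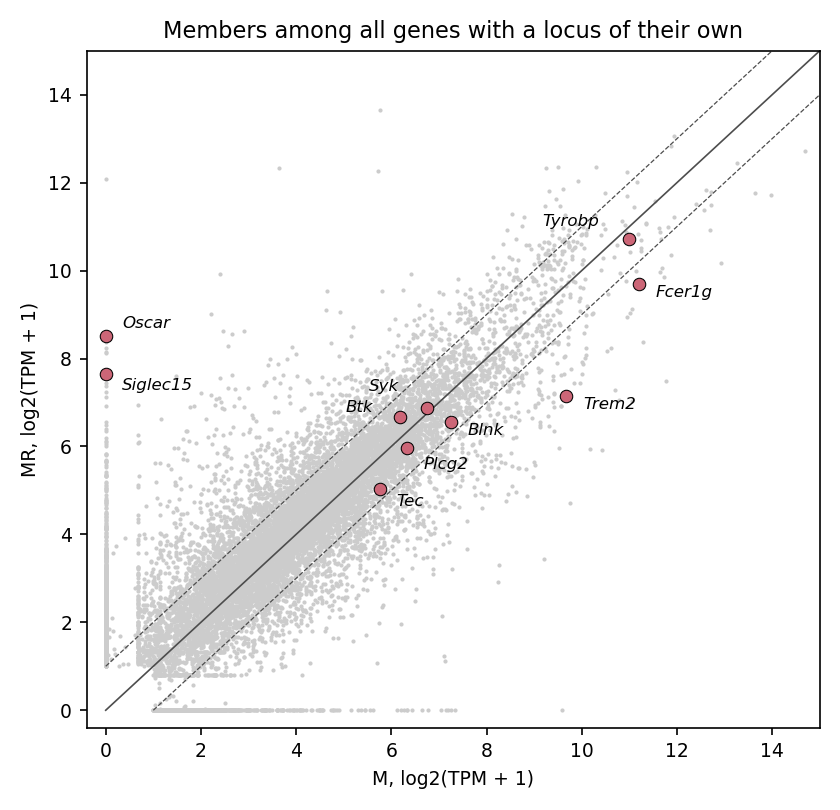
Log2(TPM + 1) in MR against M for all 13464 genes tested (grey) and the 10 ITAM pathway genes (labelled), with a solid line of equality and dashed lines at log2 ratios of 1 and -1. Oscar and Siglec15 stand at 0 in M, Trem2 and Fcer1g lie below the lower line, and the other 6 genes lie between the lines.

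The sequences upstream of Oscar and Trem2 are shown because they are the receptors whose promoters were read and were called in opposite directions. Both are RefSeq promoters on GRCm38.p6, from 250 bases before to 50 bases after the annotated start, 5′ to 3′ on the strand of the gene. Capitals mark GGAAA or its reverse complement TTTCC, the core bound by NFAT proteins, searched on both strands.
Oscar: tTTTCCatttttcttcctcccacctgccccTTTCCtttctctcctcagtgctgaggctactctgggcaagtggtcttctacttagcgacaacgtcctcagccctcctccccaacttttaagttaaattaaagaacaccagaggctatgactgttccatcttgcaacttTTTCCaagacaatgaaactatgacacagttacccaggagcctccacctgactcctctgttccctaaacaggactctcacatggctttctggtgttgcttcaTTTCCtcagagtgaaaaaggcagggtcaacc
Trem2: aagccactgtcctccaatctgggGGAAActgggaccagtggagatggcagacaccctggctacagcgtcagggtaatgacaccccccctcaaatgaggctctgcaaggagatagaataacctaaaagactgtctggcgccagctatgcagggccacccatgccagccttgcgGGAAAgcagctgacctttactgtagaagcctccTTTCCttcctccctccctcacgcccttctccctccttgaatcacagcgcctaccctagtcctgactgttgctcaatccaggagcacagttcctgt
The Oscar window is chr7:3616108-3616407 on the minus strand and holds 4 cores. The Trem2 window is chr17:48346151-48346450 on the plus strand and holds 3 cores. Of 32851 promoters of this length, 61.3% hold at least 1 core, 9.42% hold 3 or more and 2.65% hold 4 or more. Promoters were found for 8 of the 10 genes, and 6 of their 9 windows (Syk has 2) hold the core. The core was thus found upstream of a receptor with a locus in MR alone and of a receptor that was lower in MR. The ETS core of PU.1 (GAGGAA, both strands) was found in 28.3% of all promoters and in 4 of the 9 windows. The AP-1 motif (TGANTCA, both strands) was found in 7.81% of all promoters and in 1 of the 9 windows, that of Trem2. These matches are descriptions of letters and do not show binding.

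The ends of the assembled loci were a measure that the choice of genes did not use. None of the 18 loci of the 10 genes was shared with another gene. The Oscar locus in MR began 21 bases upstream of the annotated start and ended 10 bases short of the annotated end. For the 8 genes with a locus in both libraries, the 5′ ends in M and MR lay between 1 and 52 bases apart. The 3′ ends lay within 100 bases of each other for 7 of the 8, and the Syk locus reached 210 bases further in MR. The 3′ ends of Trem2 and Fcer1g, the genes that were lower in MR, differed by 0 and 11 bases between the libraries. In both libraries the Trem2 locus ended 1883 bases short of the annotated end. Compared with the annotated starts, the Syk locus began 456 bases upstream in M and 490 bases upstream in MR. The Btk locus began 439 and 456 bases downstream, and the Blnk locus 327 and 328 bases downstream. The Siglec15 locus in MR began 89 bases upstream of the annotated start and extended 4737 bases past the annotated end, over a stretch with 0 annotated genes. Whether the extended length entered the TPM or the coverage of Siglec15 was not tested. Its read pairs and interval were estimated with the annotated transcript of 1156 bases.

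**Figure D4:**
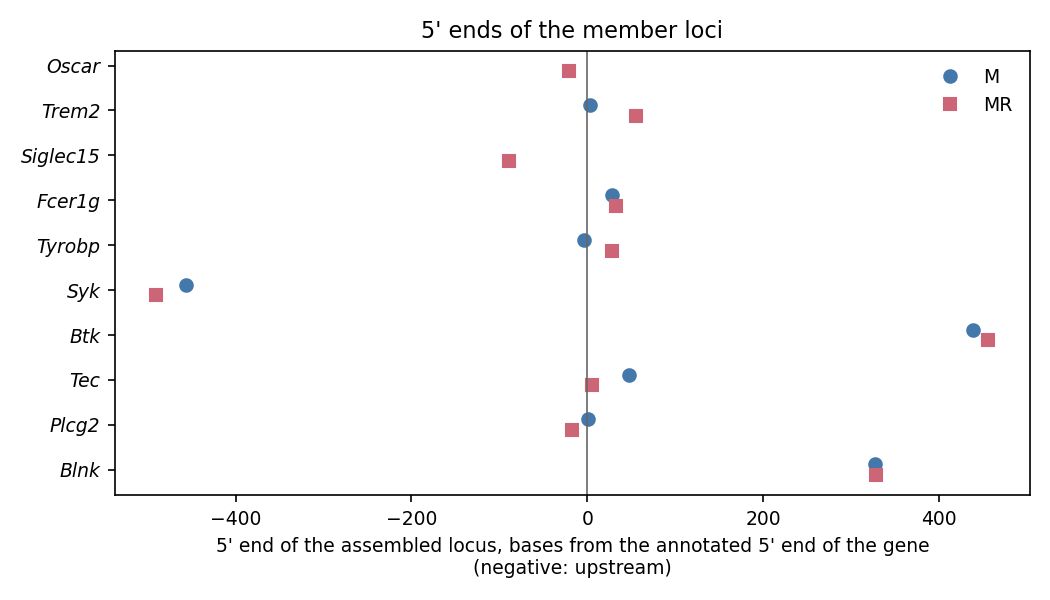
Distance in bases of the 5′ end of each assembled locus from the annotated start of its gene, in M and MR, with negative values upstream. The ends of the 2 libraries lie within 52 bases of each other for the 8 genes with a locus in both, and those of Oscar and Siglec15 in MR lie 21 and 89 bases upstream.

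Of the genes near Oscar and Siglec15, those directly beside them had loci in both libraries. Ndufa3, 1215 bases from Oscar on the opposite strand, had 227 TPM in M and 406 TPM in MR, a log2 ratio of 0.84. Tfpt, 4166 bases away, had 21.2 and 38.1 TPM, a log2 ratio of 0.81. Epg5, 8600 bases from Siglec15, had 9.15 TPM in M and 9.06 TPM in MR. Slc14a1, 42695 bases from Siglec15, had 1.24 and 3.41 TPM, and Tarm1, 107188 bases from Oscar, 4.66 and 2.84 TPM. Further out, Slc14a2 had no locus in M and 16.3 TPM in MR, Pstpip2 had 18.2 and 45.4 TPM, a log2 ratio of 1.27, and Cacng6 had no locus in either library. These neighbours were looked up after the values of the receptors were seen.

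The wider pathway was read from 6 lists of other genes, each given by its counts and median. Of 26 other activating receptors 22 were tested, and 11 were lower in MR, 1 was higher and 10 were neither. Their median log2 ratio was -1.11, and 19 of 22 ratios were below 0, as were 19 to 20 under the scaling alternatives. Over all genes tested, 5457 of 13464 ratios were below 0. Of the tested receptors of this list 54.5% were called, beside 34.5% of all genes. The activating Fc receptors, which pair with FcRγ and take up antibody-coated particles, were among the lowest. Fcgr1 had 1158 TPM in M and 60.5 TPM in MR (log2 ratio -4.24), and Fcgr3 had 453 and 43.9 TPM (-3.34). Fcgr4, described above beside Trem2, and the lectin receptor Clec4d, at 543 TPM in M and 126 TPM in MR (-2.10), were also lower. Cd300e (-3.31) and Treml2 (-3.20) were lower as well. Nfam1, a receptor known for an ITAM in its own tail, which the codon pattern searched above did not match, was the 1 called higher, with 79.9 TPM in M and 215 TPM in MR (1.42). Together the list reached 4233 TPM in M and 982 TPM in MR. Reads may be split between the near-identical members of the Sirpb1, Pira, Cd300 and Clec4 families, and Sirpb1b, Lilra6 and Pira2 lay inside the loci of other genes and were given no value.

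Of 8 genes listed as other ITAM adaptors 3 were tested, all of them low. Cd79b, a signalling chain of the B cell receptor, had 5.67 TPM in M and 1.46 TPM in MR (log2 ratio -1.44) and was called lower. Its partner Cd79a had 2.79 and 3.40 TPM. Hcst, the DAP10 adaptor, in which the codon pattern searched above had no match, had 14.8 and 11.5 TPM. All 3 were below Fcer1g and Tyrobp in both libraries.

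Of 15 Src family kinases and their regulators 13 were tested, with 2 higher, 3 lower and 8 neither and a median of -0.53. The called share was 38.5%, beside 34.5% of all genes. Src had 3.68 TPM in M and 289 TPM in MR (log2 ratio 5.95). The MR locus of Src also covered the neighbouring gene Manbal, so that its value is uncertain. Fgr was higher, with 10.8 and 27.6 TPM (1.28). Lyn was lower, with 216 and 81.3 TPM (-1.40). Pag1, a membrane anchor of the inhibitory kinase Csk, was lower (-1.07). Ptprc, the CD45 phosphatase that activates Src family kinases, had 272 and 164 TPM (-0.73).

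The 4 other Syk and Tec family kinases gave 2 tested genes, Bmx (2.26 and 1.26 TPM) and Txk (0.823 and 2.50 TPM), with 0 called. Of 23 scaffolds, exchange factors and lipid enzymes 22 were tested, with 3 higher, 2 lower and 17 neither and a median of -0.23. Their called share was 22.7%, beside 34.5% of all genes. The scaffold Lat was higher, with 1.98 TPM in M and 21.2 TPM in MR (log2 ratio 2.90), as were Malt1 (8.31 and 27.6 TPM) and the lipid kinase Pik3cb (23.2 and 61.1 TPM). The adaptor Pik3ap1 was lower, with 429 and 188 TPM (-1.18), and Grap2 had 2.36 TPM in M and no locus in MR. Lat2 (402 and 290 TPM), Prkcd (257 and 211 TPM) and Grb2 (257 and 185 TPM) were not called. With Pik3ap1 they had the highest TPM of the list in either library.

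Of 23 inhibitory receptors and phosphatases, which carry or bind the opposing ITIM motif, 20 were tested. In MR 7 were lower, 3 were higher and 10 were neither, with a median of -0.53. The called share of this list was above the 34.5% of all genes. Its share of lower genes was above the 13.3% of all genes, and its share of higher genes was below the 21.2% of all genes. The receptor Cd300lf had 116 TPM in M and 8.32 TPM in MR (log2 ratio -3.65). Lilrb4a had 1700 and 386 TPM (-2.14), on a locus that also covered Gm49339, and Pilra (-2.09) and Lair1 (-1.88) were lower as well. Clec4a2 was higher, with 65.0 and 270 TPM (2.03), as were the signalling inhibitor Dok3 (72.9 and 161 TPM) and Pecam1 (2.39 and 6.28 TPM). Sirpa (994 and 537 TPM), Clec12a (746 and 528 TPM) and the phosphatase Ptpn6 (575 and 388 TPM) were abundant and not called. Under the scaling alternatives 7 to 8 of the list were lower and 1 to 3 were higher.

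**Figure D5:**
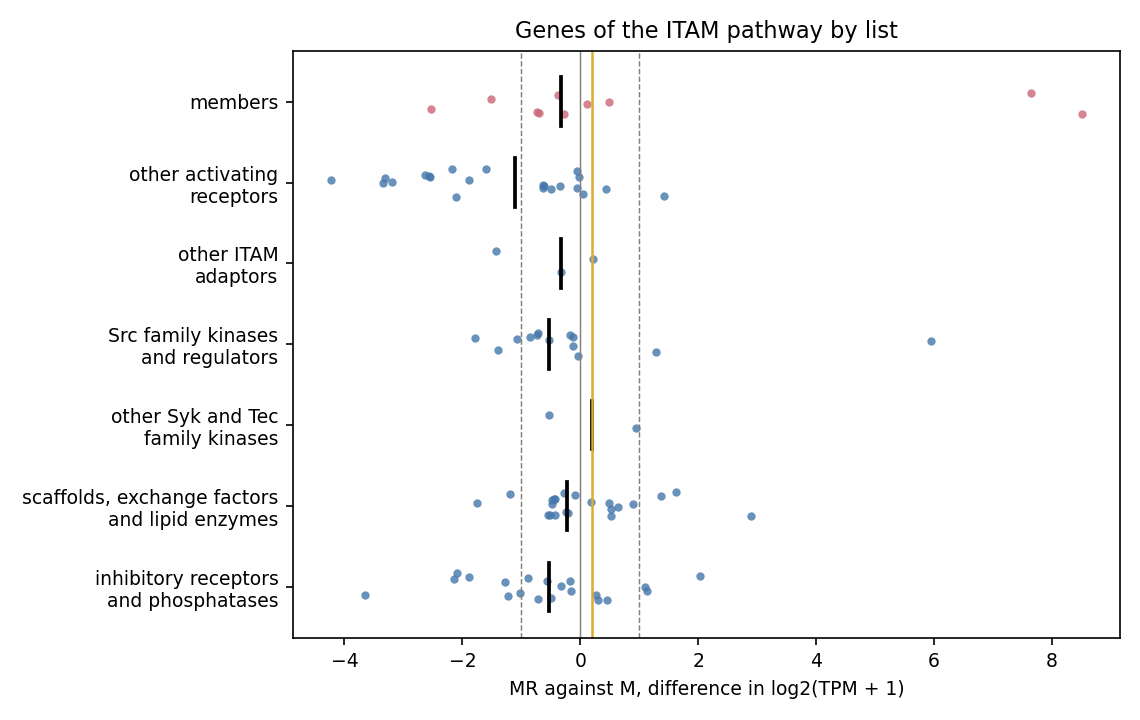
Log2 ratio of MR to M for each tested gene of the 10 ITAM pathway genes and of the 6 other pathway lists, with black bars for the list medians, dashed lines at 1 and -1 and a yellow line at the all-gene median of 0.21 (the 10 genes are marked members). The median of the other activating receptors is -1.11, and the medians of the scaffolds and of the inhibitory receptors are -0.23 and -0.53.

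Several of these genes are also expressed by other blood cells, whose markers were read in both libraries. In bulk RNA, fewer cells of a type and less RNA per cell cannot be told apart. Of 6 macrophage markers 3 were lower in MR, which were Adgre1 (681 and 148 TPM), Mertk (108 and 15.8 TPM) and Fcgr1, and the list summed to 5306 TPM in M and 3297 TPM in MR. They moved in the direction of Trem2 and Fcer1g, and their part in these results was not tested. Csf1r, the M-CSF receptor, had 697 TPM in M and 872 TPM in MR. B cells, a major source of Btk, Blnk and Plcg2, were represented by 9 markers with a sum of 42.1 TPM in M and 14.5 TPM in MR, and Ebf1, Vpreb1 and Igll1 had no locus in either library. Of the 6 B cell markers tested 4 (66.7%) were lower in MR, beside 13.3% of all genes. Of these 4, Ms4a1 (3.11 and 1.04 TPM), Cd79b (5.67 and 1.46 TPM) and Pax5 (6.52 and 1.31 TPM) were low in both libraries. The 4 markers moved in the direction of Blnk and Plcg2, and their part in those values was not tested. The B cell list summed to less than Blnk alone in both libraries. Marker sums do not give the share of Blnk RNA that came from B cells.

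Mast cells and basophils, which express Fcer1g, had a sum of 16.3 TPM in M and 8.77 TPM in MR over 8 markers, and Fcer1a and Ms4a2 had no locus in either library. Of 6 NK cell markers 5 had no locus in M and 6 had none in MR. Of 6 T cell markers Cd3d, Cd3e, Cd3g and Trbc2 had no locus in either library, and the list summed to 7.25 TPM in M and 22.5 TPM in MR, mostly Cd5 in MR (17.98 TPM). The 6 platelet and megakaryocyte markers summed to 542 TPM in M and 73.9 TPM in MR, with most of the sum in M from Pf4 (505 and 38.4 TPM) and the sum in MR mostly from Pf4 and Ppbp (22.4 and 27.3 TPM), while Gp6, a receptor that pairs with FcRγ, had 1.00 and 1.08 TPM. The 8 neutrophil markers summed to 1376 TPM in M and 960 TPM in MR, with 0 called, and the 5 plasmacytoid dendritic cell markers to 25.9 and 21.5 TPM. The neutrophil and Pf4 levels were lower in MR together with Fcer1g, and their part in that result was not tested.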

How the data were processed

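RNA-seq of 1 M and 1 MR library was used. The authors trimmed paired reads of 150 bases with Trim Galore, aligned them to mm10 (GRCm38) with HISAT2 and ran StringTie. Versions are not given in the sources used here. The deposited tables list coverage (read depth per base), FPKM and TPM, which the authors scaled so that the assembled loci sum to 1000000 in each library.

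The GENCODE vM27 annotation given to StringTie has GRCm39 positions, so the entries with gene names were not used. Those entries held a further 87234 TPM in M and 129264 TPM in MR. Whether they hold reads from any of the 10 genes was not tested. Each assembled locus went to 1 gene of GENCODE vM21 (GRCm38), that whose exons it covered by the most bases, with a minimum of 50 and no conflict of strand, and TPM was summed per gene. A locus that covered 50% or more of the exon bases of a further protein-coding gene was called shared. The assignment was tested on simulated data. Log2 ratios used a pseudocount of 1, and genes under 1 TPM in both libraries were left out. Median-of-ratios scaling used 11871 genes. Read pairs were estimated from FPKM, transcript length and aligned bases, at 300 bases per pair. Aligned bases were taken as the modal coverage divided by FPKM, over entries above an FPKM of 5. Intervals were exact (Poisson or Clopper-Pearson).

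The genes and lists were chosen with earlier results of these data known. Named genes were the 10 genes, up to 4 of each list with the highest and lowest ratios past the threshold and the highest TPM, the cell markers, and the 3 nearest genes in level to each receptor. Some genes of the lists are counted but not reported here by name. Neighbouring genes and the class absent from M were added after values were seen. Calculations ran in Python 3.11.15 (pandas 2.3.3, numpy 2.4.6, scipy 1.17.1), and plots in matplotlib 3.10.9. The alternatives, given with their effects, changed the pseudocount, scaling, unit, locus assignment, TPM filter and threshold.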

Additional observations from a re-analysis of the deposited data

How the results depend on the processing

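Of 197 values recomputed under alternative settings, 159 moved by no more than their counting or list interval, 38 moved further and 0 reversed a call. Levels, sums, shares and medians carry no call, so they could not reverse one. Among those that moved, the receptor sum in MR went from 86.2% to 126% of M by coverage. Fcer1g per Tyrobp in M went from 1.15 to 0.621. For the 10 genes, the settings on single loci, exon bases and strand gave identical values. Each gene had at most 1 locus per library, so these settings could not move them, and they are included in the counts here and below. The list medians were all among the 159, including those with the wide ranges given below. The role sums, shares and ratios by coverage were added after the data were seen. Median-of-ratios scaling shifted the all-gene median by -0.18 and lowered the share of higher genes among those called from 61.6% to 53.0%. It gave 341 TPM for Oscar and 187 TPM for Siglec15 in MR and log2 ratios of -2.73 for Trem2 and -1.71 for Fcer1g. Leaving out mitochondrial genes and the 20 most abundant genes gave 427 TPM for Oscar, 234 TPM for Siglec15 and -1.62 for Fcer1g. Coverage per aligned Gb gave -1.73 for Trem2 and -1.66 for Fcer1g. At a log2 threshold of 2, 1 of the 10 genes (Trem2) was lower. Trem2 and Fcer1g remained past a log2 ratio of 1 under all 8 alternatives for their ratio, and Tyrobp, Syk, Btk, Tec, Plcg2 and Blnk under none. Syk had a ratio below 0 under 2 of the 8, at -0.08 (median-of-ratios) and -0.0005 (coverage). The median of the other activating receptors ranged from -2.10 to -0.63, and that of the other Syk and Tec family kinases changed sign (-0.53 to 0.35). Over all genes 2860 were higher and 1784 lower, against 1601 and 983 among genes that reached 10 TPM, and 958 and 521 at a log2 threshold of 2. No paired analysis was possible because there was 1 library per condition, and no replicate could be left out. Depth limited the genes listed at 0, for which weak expression cannot be told apart from none.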

Other observations

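The ratio of coverage to FPKM, whose most frequent value was shared by 42.2% of the entries with an FPKM above 5 in M and 45.8% in MR, was 3.63 in M and 2.98 in MR for Tyrobp and Btk. It was lower for Trem2 (1.91 in M and 2.85 in MR), Fcer1g (1.96 and 1.51) and Siglec15 (1.05 in MR). The coverage column and the TPM column therefore give different sizes for the change of Trem2 and Fcer1g and a different order of Fcer1g and Tyrobp in M, and the cause was not tested.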
